A study of Mus musculus with 20 samples.

Results

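The mitochondrial ribosomal protein genes are described here in mouse ovaries of 3 ages, with and without the compound HEP14. Members were the protein-coding genes whose symbol is Mrpl or Mrps followed by a number. Of the 78 such genes in the annotation, 59 were in the deposited gene table, out of 17651 genes. Of the 59, 39 encode proteins of the large subunit, 19 encode proteins of the small subunit, and Mrps36 encodes a protein that was later assigned to a metabolic enzyme complex and not to the ribosome. Mrps18a and Mrps30 were counted with the large subunit, where structures of the mammalian ribosome place their products. The other 19 genes, Mrps22 among them, were not analysed here. RNA was sequenced from the ovaries of wild-type mice, with 4 libraries in each of 5 groups. These were young mice of 7 to 8 weeks, adult mice of 27 to 28 weeks, adult mice given HEP14, aged mice of 73 to 74 weeks given vehicle (aged below), and mice of 73 to 74 weeks given HEP14 (aged + HEP14). The labels read here do not say whether adult mice without HEP14 received vehicle, and the adult group given HEP14 is known from the sample titles alone. HEP14 is a compound known as an activator of protein kinase C that raises the number of lysosomes in a cell. The labels do not say whether the 4 libraries of a group came from separate animals, so p-values measure only the spread between these libraries.

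Mitochondria keep a small genome of their own, and the messenger RNAs it encodes, all for subunits of the respiratory chain and ATP synthase, are translated inside the organelle by the mitochondrial ribosome. The ribosomal RNAs come from the mitochondrial genome, whereas every protein of this ribosome is encoded in the nucleus, made in the cytosol and imported. Some of these proteins belong to families shared with bacteria and others are specific to mitochondria. Oocytes carry very many mitochondria, and in women, inherited variants in some of these genes, MRPS22, MRPS7 and MRPL50 among them, have been linked to ovarian insufficiency.

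Each value is a score: the authors' table gives every gene a mean of 0 and an SD of 1 over the 20 libraries, so a score is a position relative to that gene's own average and carries no expression level and no read depth. Differences between groups are therefore in SD of the gene and are not fold changes. The 4 aged libraries stood apart from the other 16 over the whole table. They lay between 135 and 200 on the first principal component (46.7% of the variance), against -68.1 to -9.58 for the rest. In addition, 1956 to 3697 genes were at a shared lowest value in aged libraries and 686 to 1218 in the others, but no mitoribosomal gene was. Median scores were -0.624 to -0.279 in aged libraries and -0.159 to 0.018 elsewhere. Because group and library state coincide here, age or treatment and whatever else set the aged libraries apart cannot be told apart. In bulk tissue RNA, fewer cells of a type and less RNA per cell cannot be told apart either.

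The mitoribosomal genes did not move as 1 block between young and aged ovaries. In aged ovaries 22 of 59 were higher and 21 were lower, and 16 did not pass the test (limma, all 20 libraries in 1 fit, Benjamini-Hochberg adjusted p of 0.05 over all 17651 genes). Over all genes of the table, 33.0% were called higher and 41.3% lower, 74.3% in all, so the share of members called was near that of the table. Both subunits were split. Of the large subunit genes 15 were higher and 14 lower, and of the small subunit genes 7 were higher and 7 lower. The same held for the origin of the proteins: 13 of 36 genes from families shared with bacteria were higher and 13 lower, and of the 22 mitochondria-specific genes 9 were higher and 8 lower. The median difference was 0.31 over all members, 0.31 in the large and -0.20 in the small subunit, beside -0.41 over all genes, and the members ranged from -2.63 to 2.56. With library medians set equal, which moved the median of all genes by 0.43, the counts were 25 higher and 18 lower and the small subunit median was 0.22. The young and aged libraries did not overlap in 21 members in the upward and 16 in the downward direction (24.7% and 35.4% of all genes, 60.1% in all). In 9 members all 4 aged libraries lay above the other 16 (17.6% of all genes did), and in 10 members all 4 lay below them (20.2% of all genes did).

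**Figure D1:**
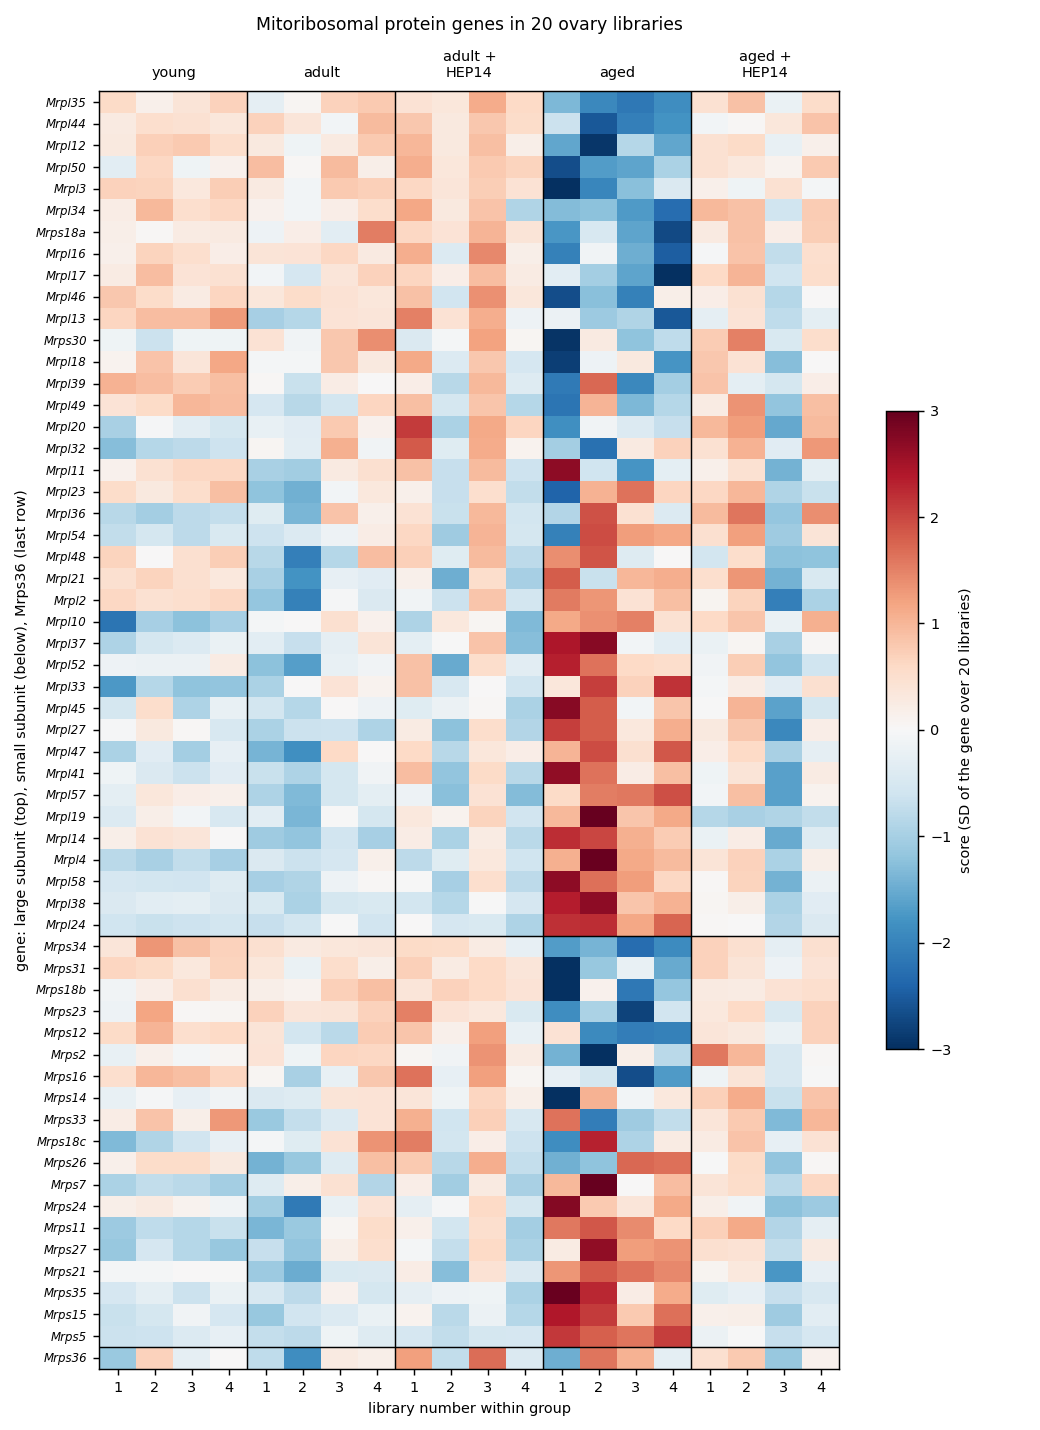
Scores of the 59 genes (rows) in the 20 libraries (columns, 4 per group), in SD of the gene; colours stop at 3 above and below 0, and rows are ordered within each subunit by the mean score in aged libraries. The aged columns hold the deepest blue and the deepest red, 22 genes being higher and 21 lower than in young ovaries, while aged + HEP14 library 3 is the lowest of its group for 55 genes.

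Among the genes higher in aged ovaries, Mrps5 (ENSMUSG00000027374, chr2:127587222-127606829 on the + strand of GRCm38) encodes a protein of the small subunit, and knockdown of its ortholog in Caenorhabditis elegans is known to extend lifespan. Its scores were -0.64, -0.61, -0.41 and -0.25 in young libraries and 2.13, 1.79, 1.61 and 2.07 in aged libraries, without overlap. The difference was 2.37 ± 0.262 (SE; limma, adjusted p = 2.88e-07). Mrpl24 (ENSMUSG00000019710, chr3:87919506-87923672 on the + strand of GRCm38) encodes a protein at the exit of the tunnel through which the new protein leaves the large subunit. It scored -0.59, -0.67, -0.63 and -0.55 in young and 2.20, 2.22, 1.17 and 1.75 in aged libraries, so the young libraries lay close together and far below every aged one. The difference was 2.44 ± 0.31 (adjusted p = 1.16e-06).

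The difference was largest for Mrpl33, a small protein of the large subunit from a bacterial family, at 2.56 ± 0.435 (adjusted p = 3.19e-05). Its scores were -1.72, -0.85, -1.20 and -1.19 in young and 0.34, 2.07, 0.69 and 2.17 in aged libraries. The groups did not overlap, though aged library 1 lay far below aged libraries 2 and 4. Mrpl4, whose product lines the exit tunnel, went from -0.89 ± 0.12 to 1.53 ± 0.96 (mean ± SD, n = 4), a difference of 2.42 (adjusted p = 4.3e-05). Aged library 2 was its highest, at 2.97, and the other 3 aged libraries lay between 0.96 and 1.13.

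Further named genes were higher as well. Mrpl58 and Mrpl45 belong to the panel of roles, whereas Mrps35 and Mrpl19 were named for their large differences with HEP14 in aged ovaries. Mrpl58 encodes a hydrolase that became part of the large subunit and can free stalled ribosomes. It scored -0.498, -0.56, -0.57 and -0.40 in young and 2.67, 1.64, 1.26 and 0.61 in aged libraries (difference 2.05, adjusted p = 0.000556), without overlap. Mrpl45, whose product sits at the tunnel exit and helps to hold the ribosome at the inner membrane, had a difference of 1.62 (adjusted p = 0.0114). Its aged libraries ran from -0.084 to 2.74, overlapped with the young ones, and without aged library 1 the gene did not pass (1.15, adjusted p = 0.0556), nor with 1 variance per group (adjusted p = 0.0731). Mrps35, a mitochondria-specific protein of the small subunit, scored -0.51, -0.29, -0.63 and -0.20 in young and 2.96, 2.27, 0.23 and 1.11 in aged libraries (difference 2.05, adjusted p = 0.000255). Mrpl19, a large subunit protein of a bacterial family, went from -0.20 ± 0.30 to 1.504 ± 1.06 (difference 1.71, adjusted p = 0.00135).

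On the other side, Mrps34 (ENSMUSG00000038880, chr17:24895116-24897502 on the + strand of GRCm38), a mitochondria-specific protein of the small subunit in which human variants cause a mitochondrial disease, had the largest fall. Its scores were 0.36, 1.33, 0.88 and 0.70 in young and -1.68, -1.40, -2.28 and -1.88 in aged libraries, and every aged library lay below every library of all other groups. The difference was -2.63 ± 0.306 (adjusted p = 4.72e-07). This value is uncertain, because 63.4% of the exonic bases of Mrps34 overlap with Mapk8ip3 and 37.0% with Nme3. Mrpl35, of a bacterial large subunit family, scored 0.57, 0.16, 0.39 and 0.69 in young and -1.34, -1.93, -2.14 and -1.87 in aged libraries. Its aged libraries were tightly grouped for this gene set, and the difference was -2.27 ± 0.319 (adjusted p = 3.58e-06).

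Mrpl12 encodes the protein of the large subunit's stalk, which recruits translation factors. It scored 0.30, 0.72, 0.80 and 0.54 in young and -1.56, -2.93, -0.86 and -1.56 in aged libraries, a difference of -2.31 ± 0.372 (adjusted p = 1.68e-05). Mrpl3, whose product reaches toward the peptidyl transferase centre, scored 0.69, 0.67, 0.31 and 0.73 in young and -3.03, -1.95, -1.25 and -0.44 in aged libraries (difference -2.27, adjusted p = 4.28e-05). In both genes the aged libraries ranged far more widely than the young ones and did not overlap with them. Mrpl34 (difference -2.21), Mrpl44 (-2.15), a protein with the fold of a ribonuclease, Mrpl13 (-2.13) and Mrps31 (-2.13) were also lower, with adjusted p of 0.000105, 2.35e-05, 0.000465 and 0.000295.

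**Figure D2:**
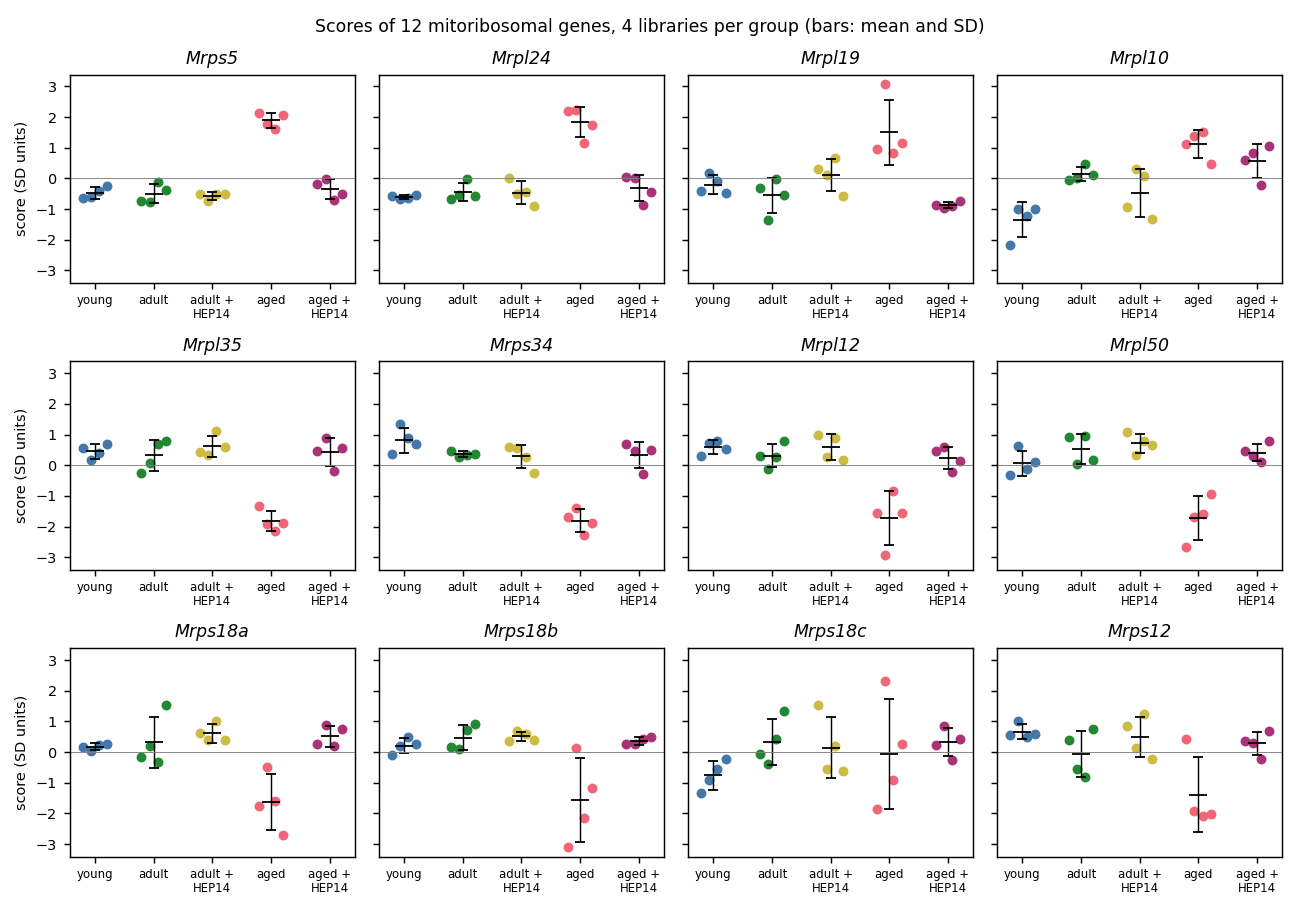
Scores of 12 mitoribosomal genes by group, each point 1 library (n = 4 per group) with mean and SD as bars; the y axis is in SD of the gene. Mrps5, Mrpl24 and Mrpl19 have their aged libraries on top and Mrps34, Mrpl35 and Mrpl12 at the bottom, Mrps18c has aged libraries from -1.86 to 2.32, and the means of Mrpl10 are -1.35 in young, 0.14 in adult and 1.11 in aged libraries.

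Genes whose products lie in the same region of the ribosome were found on both sides. Of the stalk, Mrpl10 was higher in aged ovaries (2.47, adjusted p = 1.68e-05) and Mrpl12 lower. The remaining stalk gene, Mrpl11, had aged libraries at 2.68, -0.59, -1.78 and -0.30 and did not pass (-0.45, adjusted p = 0.567). Aged library 1 decided that value, since without it the difference was -1.34 and passed (adjusted p = 0.0303), whereas without aged library 3 it was 0.15. Of 5 genes for the central protuberance 2 were higher and 2 lower, and of 5 genes for the tunnel exit 3 were higher and 1 lower. Over all genes 33.0% were higher and 41.3% lower. With only 3 to 5 genes in a region, no region was tested against that share.

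The bacterial small subunit protein S18 has 3 descendants in mammalian mitochondria. Mrps18a, now in the large subunit, was lower in aged ovaries, with aged libraries at -1.75, -0.47, -1.59 and -2.70 against 0.18, 0.034, 0.25 and 0.27 in young ones (difference -1.81, adjusted p = 0.000728). Mrps18b, in the small subunit, was lower too (-1.78, adjusted p = 0.0016), but its aged library 2, at 0.12, lay within the young range, and with ranks it did not pass (adjusted p = 0.062). Mrps18c, also in the small subunit, scored -1.86, 2.32, -0.92 and 0.25 in aged libraries and did not pass (0.71, adjusted p = 0.338). Those aged libraries reached both below and above all 4 young ones.

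Of the genes linked to human ovarian insufficiency, Mrps7 and Mrpl50 were in the table, and 1 was higher and 1 lower. Mrps7, a head protein of the small subunit, scored -0.96, -0.75, -0.80 and -1.02 in young and 0.97, 3.04, 0.014 and 0.93 in aged libraries (difference 2.12, adjusted p = 0.00107). Mrpl50, a mitochondria-specific large subunit protein, scored -0.33, 0.62, -0.13 and 0.12 in young and -2.67, -1.68, -1.59 and -0.95 in aged libraries (difference -1.79, adjusted p = 0.00016). Neither gene's groups overlapped. Mrps12, the small subunit protein next to the decoding site, was lower (-2.07, adjusted p = 0.000947), with 3 aged libraries at -1.92 to -2.08 and aged library 1 at 0.44, close to the young range of 0.51 to 1.03. Mrps30 (-0.90, adjusted p = 0.139) did not pass; without aged library 2 its difference was -1.38 and passed (adjusted p = 0.0254). Mrps36, the gene outside the ribosome, did not pass either (0.39, adjusted p = 0.614).

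Promoters are shown because nuclear genes of mitochondria are known to share sites for nuclear respiratory factor 1 (NRF1), ETS family factors such as GABP, and YY1, and members with the same letters were found on both sides. RefSeq windows from 250 bases before to 50 bases after the start were found for 52 of the 59 genes (58 windows). Searched on both strands, the NRF1 letters, which are GCGC on both sides of an A and any base, occurred in 17.2% of member windows, 4.6% of all windows and 8.37% of windows of coding genes in the table. The ETS letters CCGGAAG occurred in 36.2%, 8.86% and 14.3%, and the YY1 letters, ATGGC after AA and any base and before GGC, in 12.1%, 0.986% and 1.89%. No motif contains another, and a window can hold several. Carriers of each motif lay on either side, as did the genes of the whole table (33.0% higher and 41.3% lower in aged ovaries). Of 21 genes with the ETS letters 7 were higher in aged ovaries, 9 lower and 5 not passed. Of 10 with the NRF1 letters 4 were higher and 4 lower, and of 7 with the YY1 letters 4 were higher and 2 lower. Whether carriers differ in direction from other genes was not tested. The following 120-base stretches just upstream of the RefSeq start (GRCm38.p6, 5′ to 3′ on the gene's strand) show the same letters before genes that were lower and genes that were higher, and capitals mark the NRF1 letters on either strand in the first 4 and the ETS letters in the last 2.
Mrpl12, chr11:120484517-120484636 (+ strand): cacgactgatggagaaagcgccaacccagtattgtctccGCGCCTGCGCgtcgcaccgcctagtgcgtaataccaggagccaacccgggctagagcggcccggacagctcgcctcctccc
Mrpl44, chr1:79775898-79776017 (+ strand): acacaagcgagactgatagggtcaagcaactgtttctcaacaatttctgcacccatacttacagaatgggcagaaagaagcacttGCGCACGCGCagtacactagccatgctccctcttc
Mrpl45, chr11:97315596-97315715 (+ strand): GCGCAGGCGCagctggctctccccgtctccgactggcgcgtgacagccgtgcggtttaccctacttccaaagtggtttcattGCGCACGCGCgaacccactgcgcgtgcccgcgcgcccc
Mrps21, chr3:95871515-95871634 (- strand): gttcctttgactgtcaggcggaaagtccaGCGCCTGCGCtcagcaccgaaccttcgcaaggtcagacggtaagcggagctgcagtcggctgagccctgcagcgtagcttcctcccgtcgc
Mrpl34, chr8:71464806-71464925 (+ strand): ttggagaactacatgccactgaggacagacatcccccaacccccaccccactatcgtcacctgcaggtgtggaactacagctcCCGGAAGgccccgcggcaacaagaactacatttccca
Mrpl58, chr11:115403632-115403751 (+ strand): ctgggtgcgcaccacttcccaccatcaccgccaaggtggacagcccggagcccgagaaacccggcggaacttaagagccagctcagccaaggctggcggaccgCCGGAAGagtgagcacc
Mrpl12, Mrpl44 and Mrpl34 were the genes lower in aged ovaries, with differences of -2.31, -2.15 and -2.21, and Mrpl45, Mrps21 and Mrpl58 those higher, with 1.62, 1.59 and 2.05. A match of letters is a description of the sequence and not evidence of binding.

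Many members start back to back with another gene. Of the members, 15 of 59 (25.4%) had a protein-coding neighbour on the other strand whose start lay up to 1000 bp upstream of their own. That share was 8.52% of 13748 protein-coding genes in the table. Pairs that overlap at their starts, such as Mrpl46 and Mrps11, were not counted. In 10 pairs both genes passed in aged against young ovaries, 6 in the same and 4 in opposite directions. Over all genes 74.3% were called there, 33.0% higher and 41.3% lower. Whether the pairs differ from genes paired at random was not tested. Mrps34 and Eme2, which starts 29 bp away and encodes a DNA repair endonuclease subunit, differed by -2.63 and 2.69. The value of Mrps34 is uncertain because its exons overlap those of other genes. Mrps12 and Sars2, the mitochondrial seryl-tRNA synthetase gene 172 bp away, differed by -2.07 and 1.56. The other opposite pairs were Mrpl10 with Lrrc46 (2.47 and -1.77) and Mrpl57 with Ska3 (1.31 and -1.66). Mrps5 with Zfp661 (2.37 and 2.18) and Mrpl50 with Zfp189 (-1.79 and -1.799) were among the 6 pairs with the same direction. These neighbours were taken by position and not by how they moved.

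**Figure D3:**
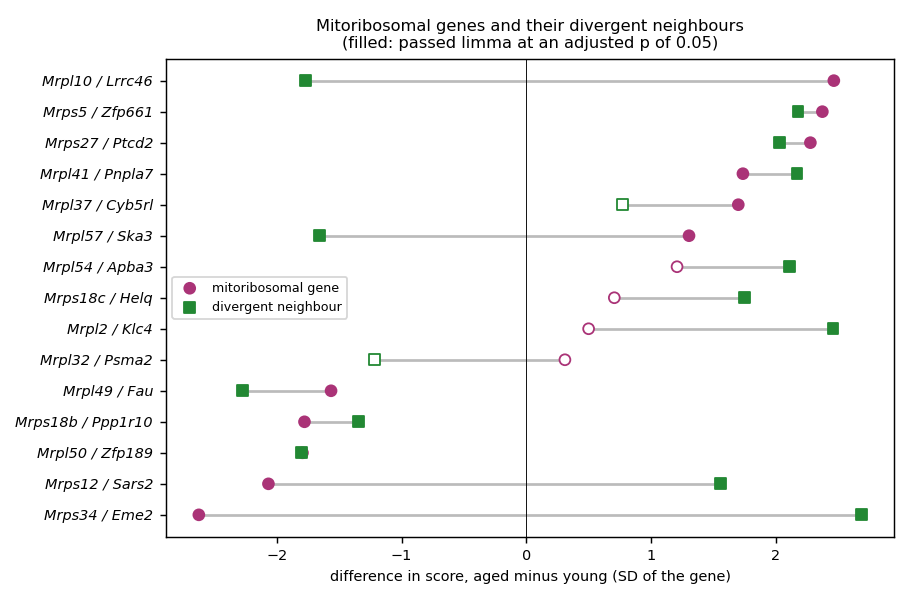
Aged minus young difference (x axis, SD of the gene) of 15 mitoribosomal genes (circles) and of the protein-coding gene that starts back to back with each (squares); filled symbols passed the test. Mrps34 and Eme2 lie farthest apart, at -2.63 and 2.69, whereas the symbols of Mrpl50 and Zfp189 fall on each other. The value of Mrps34 is uncertain because its exons overlap those of other genes.

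Exons of 27 members overlap exons of another gene in the annotation, those of 18 a protein-coding one. The overlap covers over 25% of the member's exonic bases in 4 genes: Mrps34 (63.4% with Mapk8ip3 on the opposite strand and 37.0% with Nme3 on the same strand), Mrpl19 (36.0% with Gcfc2), Mrps18b (30.5% with Gm16279) and Mrpl24 (26.3% with Rrnad1), the last 3 on opposite strands. Because the strand setting of the counting is unknown here, reads of the opposite-strand pairs cannot be told apart. No strand setting would separate those of Mrps34 and Nme3. The values of these 4 genes are uncertain to that extent. Mrpl46 and Mrps11 share 173 exonic bases on opposite strands, and Mrpl46 was lower (-2.003) and Mrps11 higher (2.22) in aged ovaries. Members were short and compact, with a median spliced length of 1340 nt and a median of 5 exons, against 3060 nt and 9 exons for protein-coding genes of the table. Members higher and members lower in aged ovaries had median lengths of 1450 and 1400 nt, and median GC contents of 52.2% and 50.1%.

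Between young and adult ovaries a single member passed with all 20 libraries in the fit. Mrpl10 (ENSMUSG00000001445, chr11:97041560-97049213 on the + strand of GRCm38), the protein at the base of the stalk, scored -2.18, -0.99, -1.24 and -0.99 in young and -0.052, 0.013, 0.47 and 0.12 in adult libraries, without overlap. The difference was 1.49 ± 0.396 (limma, adjusted p = 0.0242), and over all genes 2.75% were called higher and 7.17% lower, 9.92% in all. The call was lost when young library 1 or 3 or adult library 2 or 3 was left out (differences 1.21 to 1.53, adjusted p 0.0504 to 0.1). No member was called lower in that fit; at an unadjusted p of 0.05, 2 were higher and 4 lower. The counts depended on how the spread was estimated: limma called 3 higher and 8 lower when the fit held the compared groups alone, 2 higher and 6 lower with 1 variance per group, and 0 in either direction with ranks in place of scores. The median difference was -0.15 over the members and -0.006 over all genes. Aged against adult ovaries gave 26 members higher and 19 lower (31.1% and 35.7% of all genes, 66.8% in all), 18 and 12 in the large and 8 and 7 in the small subunit, with a median difference of 0.69 beside -0.26 for all genes.

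**Figure D4:**
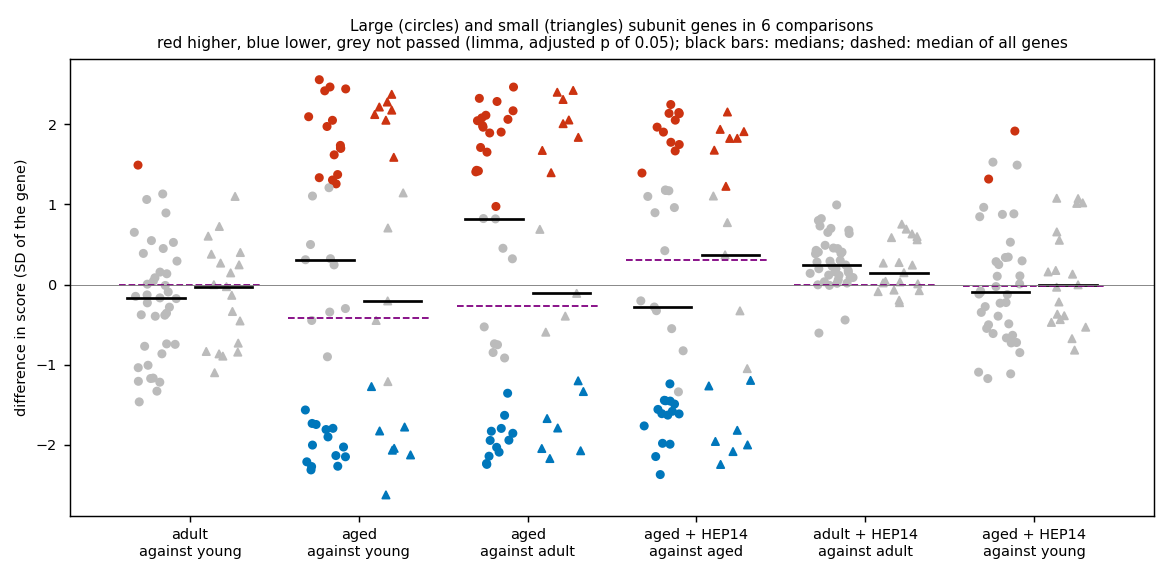
Difference in score (y axis, SD of the gene) of the 39 large subunit (circles) and 19 small subunit (triangles) genes in 6 comparisons; black bars are medians, dashed lines the median of all genes, and colour marks genes that passed. In aged against young 22 genes are red and 21 blue, in aged + HEP14 against aged 18 are red and 22 blue, and in adult + HEP14 against adult every symbol is grey.

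In aged + HEP14 against aged ovaries, 18 members were higher and 22 lower, and 19 did not pass, beside 33.2% higher and 29.3% lower over the table (62.5% in all). The libraries of the 2 groups did not overlap in 11 members in the upward and 10 in the downward direction (25.8% and 20.5% of all genes, 46.4% in all). The large subunit had 11 higher and 15 lower genes and the small subunit 7 and 7. The median difference was -0.20 over the members (large -0.28, small 0.37) and 0.31 over all genes. These counts share the 4 aged libraries with the comparison to young ovaries, so values that stood high in aged libraries enter both with opposite signs, and the values are given side by side and not as separate evidence. The count of lower genes fell in several fits: without aged + HEP14 library 3, 22 members were higher and 12 lower, with 1 variance per group 15 were higher and 10 lower, and with the compared groups alone in the fit 14 were higher and 13 lower.

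Mrps5 scored -0.18, -0.009, -0.70 and -0.499 in aged + HEP14 libraries, all below the aged libraries and within or near the range of young and adult ones. Its difference from aged ovaries was -2.25 ± 0.262 (limma, adjusted p = 2.26e-06). Mrpl24 scored 0.040, 0.019, -0.87 and -0.44 (difference -2.15, adjusted p = 9.79e-06), and Mrps35 -0.36, -0.24, -0.69 and -0.48 (-2.08, adjusted p = 0.000306). Mrpl19 had the largest fall of all members, with -0.86, -0.97, -0.90 and -0.74 in aged + HEP14 libraries and a difference of -2.37 ± 0.425 (adjusted p = 8.47e-05). Its 4 aged + HEP14 libraries lay close together and below all 4 young libraries as well, but the difference from young ovaries did not pass (-0.67, adjusted p = 0.293).

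In the other direction, Mrpl35 scored 0.45, 0.89, -0.19 and 0.55 in aged + HEP14 libraries, all above the aged ones (difference 2.25 ± 0.319, adjusted p = 8.16e-06). Mrps34 scored 0.69, 0.48, -0.28 and 0.49 (2.15, adjusted p = 8.27e-06), Mrps18a 0.26, 0.88, 0.19 and 0.75 (2.15, adjusted p = 0.0002) and Mrpl50 0.47, 0.31, 0.10 and 0.78 (2.14, adjusted p = 3.96e-05). None of these 4 genes overlapped between the groups. Mrpl34, Mrpl44, Mrpl12, Mrps18b, Mrps31, Mrpl3, Mrps30 and Mrps12 were higher too, by 1.68 to 2.13, with adjusted p from 6e-05 to 0.00886.

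Some members that differed between young and aged ovaries did not pass with HEP14. Mrpl10 scored 0.59, 0.82, -0.21 and 1.06 in aged + HEP14 libraries, overlapping with the aged ones (-0.55, adjusted p = 0.233). Mrps7 scored 0.39, 0.55, -0.81 and 0.63 (-1.05, adjusted p = 0.0813), and it passed without aged library 3 (-1.46, adjusted p = 0.0189). Mrpl13 did not pass (0.96, adjusted p = 0.0815), though it did without aged library 1 (1.29, adjusted p = 0.0238). Mrpl33, Mrpl4, Mrpl58 and Mrpl45 were lower (-1.24, -1.45, -1.76 and -1.61, adjusted p 0.0181, 0.00563, 0.00262 and 0.0145). The calls of 2 of them rested on single libraries: that of Mrpl33 was lost without aged library 2 or 4 or aged + HEP14 library 3 (-0.96 to -1.10), and that of Mrpl45 without aged library 1 or aged + HEP14 library 3 (-1.14 and -1.17). Both calls were also lost in limma fits with 1 variance per group (adjusted p = 0.109 for Mrpl33 and 0.108 for Mrpl45). The compared groups alone lost both too (adjusted p = 0.0617 and 0.0966), and ranks lost that of Mrpl33 (adjusted p = 0.0713). The calls of Mrps30 (with 1 variance per group or the compared groups alone in the fit), Mrpl4 (with the compared groups alone in the fit), and Mrps12 and Mrpl3 (with ranks) were lost in those fits, with adjusted p of 0.057 to 0.0787. Mrps18c (0.37), Mrpl11 (-0.28) and Mrps36 (-0.16) did not pass.

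Set against young ovaries, aged + HEP14 libraries were called higher in 2 members and lower in none (5.38% and 10.5% of all genes, 15.9% in all), by limma. When the fit held those groups alone 6 were higher and 3 lower, with 1 variance per group 8 were higher and 2 lower, and with ranks 4 were higher. At an unadjusted p of 0.05 there were 8 higher and 2 lower. The 2 genes were Mrpl10 (1.92 ± 0.396, adjusted p = 0.00365) and Mrpl33 (1.32 ± 0.435, adjusted p = 0.044). The count was 5 without aged + HEP14 library 3 and 1 without any one of the other 7 libraries compared. A difference that missed the threshold does not show that the groups were alike.

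HEP14 in adult ovaries gave no call. With limma 0 members were higher and 0 lower, and over all genes 0.00567% were called (1 gene, higher) and 0% called lower. At an unadjusted p of 0.05, 1 member was higher and 0 lower, and the count of adjusted calls was also 0 in every alternative fit tried. The median difference was 0.24, with 50 of 59 members above 0, beside -0.001 and 8732 of 17651 over all genes. Above 0 were also 70 of 73 cytosolic ribosomal protein genes and 60 of 75 nuclear genes of the respiratory chain. Of the mitochondrially encoded subunit genes 1 of 13 was. Members tended to move together within a library, as described below, so 50 of 59 does not count independent values. Mean scores over the members were -0.407, -0.669, 0.106 and 0.239 in adult libraries. In adult + HEP14 libraries these means were 0.503, -0.393, 0.661 and -0.387, so the 2 groups overlapped. For Mrps5 the adult + HEP14 libraries stood at -0.496, -0.75, -0.53 and -0.52 and the adult libraries at -0.73, -0.78, -0.12 and -0.39, and for Mrps34 they stood at 0.58, 0.55, 0.26 and -0.25 and 0.48, 0.27, 0.33 and 0.37. In both genes the adult groups overlapped. A test of the difference itself, the HEP14 effect in aged minus that in adult ovaries, passed for 29 members, 12 higher and 17 lower (24.9% and 22.4% of all genes, 47.3% in all). With library medians set equal these were 7 and 20, with 1 variance per group 10 and 10, and with ranks 1 and 7.

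Within some groups a single library was the lowest for most members, in both subunits. In the aged + HEP14 group, library 3 was the lowest of the 4 for 55 of 59 members (93.2%), 36 of 39 in the large and 18 of 19 in the small subunit, while it was the lowest for 29.8% of all genes. Its mean score over the members was -0.823, and the other 3 libraries had means from 0.148 to 0.583. In the adult group, library 2 was the lowest for 40 members (mean -0.669), where 22.7% of all genes had it lowest. In the adult + HEP14 group, libraries 1 and 3 held the highest value of 57 members and libraries 2 and 4 the lowest of 56, where 48.8% and 49.9% of all genes did. In the aged group no library was lowest for most members. Library 1 was lowest for 21 members and highest for 20, where 45.2% and 36.6% of all genes had it so. Library 2 was highest for 25 members and lowest for 6, where 25.2% and 24.4% of all genes had it so. Its mean score over the members was 0.531, and the other aged libraries had means from -0.192 to -0.059.

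**Figure D5:**
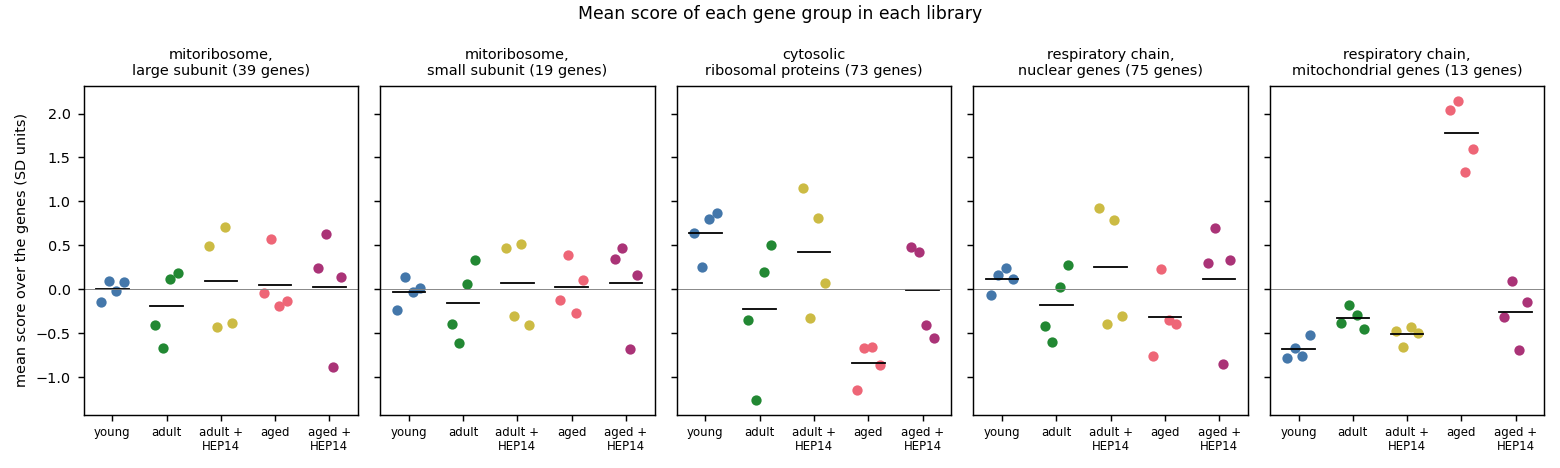
Mean score over the genes of each set (y axis, SD units) in each library (points), with the group mean as a bar. Both mitoribosomal subunits keep group means near 0 in all 5 groups, with aged + HEP14 library 3 lowest at -0.885 and -0.681, while the cytosolic ribosomal set is low and the mitochondrially encoded set high in the aged libraries.

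Other sets followed these swings in part. In aged + HEP14 library 3 the nuclear genes of the respiratory chain had a mean of -0.849, and 71 of 75 were lowest there, whereas 23 of 73 cytosolic ribosomal protein genes were lowest there. In that library the 4 oviduct markers had a mean of 1.69 (-0.585 to -0.523 in the other 3 libraries of the group) and the 10 oocyte markers -0.784 (-0.665 to 0.427 in the others). Protein-coding genes other than the members were also ranked by spliced length: the shortest 3420 (up to 1962 nt, a limit that 39 members meet) had a mean of -0.200 there, and the longest 3423 a mean of 0.425. In adult library 2 the corresponding means were -0.361 and 0.442, and in adult + HEP14 library 3 they were 0.168 and -0.280. The part of tissue makeup or transcript length in the swings was not tested.

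Related gene sets were counted in the same way in aged against young ovaries. Over all genes 33.0% were higher and 41.3% lower. Of 73 cytosolic ribosomal protein genes 4 were higher and 53 lower (median -2.02). Of 75 nuclear respiratory chain genes 19 were higher and 33 lower (25.3% and 44.0%), and all 13 mitochondrially encoded subunit genes were higher. With HEP14 in aged ovaries these sets had 39 higher and 7 lower, 29 higher and 13 lower, and 0 higher and 13 lower. Over all genes 33.2% were higher and 29.3% lower there. Whether the counts differ from those of the mitoribosomal genes was not tested.

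Genes that work with the mitoribosomal proteins were read from lists of their own. For these lists and the markers below, 33.0% of all genes were higher and 41.3% lower in aged against young ovaries. With HEP14 in aged ovaries these shares were 33.2% and 29.3%. Both mitochondrial ribosomal RNA genes were higher, mt-Rnr1 of the small subunit by 2.61 and mt-Rnr2 of the large subunit by 2.57, and both were lower with HEP14 (-2.10 each). Of 5 mitoribosomal proteins with other symbols, 3 were higher and 1 lower (median difference 1.68, beside -0.41 over all genes). Dap3, a GTP-binding protein of the small subunit, differed by 2.30 in aged against young ovaries and -2.26 with HEP14, and Aurkaip1, also of the small subunit, by 2.30 and -1.68. Ptcd3, a small subunit protein, was higher by 1.68, and with HEP14 it did not pass (-1.26). Its aged libraries were at 2.88, -1.45, 1.83 and 0.82, so that aged library 2 lay below all young ones (-0.845 to -0.311). Chchd1, of the small subunit, went the other way (-2.20 and 1.72), and Gadd45gip1, of the large subunit, did not pass in aged against young ovaries (0.022) and was higher with HEP14 (1.65).

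Of 12 listed mitochondrial translation factors 8 were in the table; 5 were higher and 3 lower (median 2.42), and with HEP14 in aged ovaries 3 were higher and 5 lower. Gfm2, which recycles ribosomes, differed by 2.75 and with HEP14 by -2.14. Mtif2, the initiation factor, differed by 2.55 and -2.09. Mtfmt, which formylates the initiator tRNA, differed by 2.38 and -2.30.

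Of 24 listed genes for ribosome assembly and ribosomal RNA modification 18 were in the table; 14 were higher and 3 lower (median 1.89), and with HEP14 3 were higher and 12 lower. Mterf3, a mitochondrial regulator of transcription and ribosome biogenesis, differed by 2.79 and -1.97, Eral1, a chaperone of the small ribosomal RNA, by 2.71 and -1.82, and Dhx30, a helicase of mitochondrial RNA granules, by 1.87 and -2.56.

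Among 10 mitochondrial chaperones, proteases and their stress regulators in the table, of 11 listed, 5 were higher and 4 lower (median 0.89; 4 and 5 with HEP14). Hspa9, the mitochondrial heat shock chaperone that drives import, differed by -2.45 and 2.21, and Ddit3, a transcription factor of stress responses, by 2.66 and -2.03. Of 8 regulators of nuclear mitochondrial genes in the table, of 12 listed, 5 were higher and 3 lower (median 1.37; 2 and 5 with HEP14). Nrf1 was higher (1.49) and lower with HEP14 (-2.61), as were the nuclear receptor Esrra (2.39 and -2.14) and the mitochondrial RNA polymerase Polrmt (2.34 and -2.16). Gabpa, the DNA-binding subunit of the ETS factor GABP, and Yy1 were lower (-1.94 and -2.11) and higher with HEP14 (1.87 and 2.08). Gabpb1, the partner subunit of GABP, went the other way (2.26 and -2.31).

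Markers of ovarian and other cells differed between groups as well, not always in the comparisons in which many members passed. All 10 oocyte markers were lower in aged than in young ovaries, with list means of 0.807 to 1.39 in young and -1.92 to -0.843 in aged libraries, and 7 of 10 were higher with HEP14 (-0.784 to 0.427). All 8 T and NK cell markers were higher in aged ovaries (-1.04 to -0.753 in young, 0.53 to 2.36 in aged) and lower with HEP14 (-0.204 to -0.020), and 6 of 7 B and plasma cell markers were higher in aged ovaries (-0.579 to -0.507 in young, 0.043 to 3.22 in aged). Of the granulosa markers 3 of 7 were lower in aged ovaries (-0.034 to 0.853 in young, -2.30 to 0.315 in aged), and of the luteal markers 6 of 7 were higher (-1.94 to -0.964 in young, -0.414 to 0.634 in aged). Fat cell markers, 5 of 6 lower in aged ovaries, had means of 0.504 to 2.47 in young and -0.637 to 0.911 in aged libraries, and 3 of 4 oviduct markers were lower (-0.167 to 2.61 in young, -0.377 to 0.099 in aged). Of 5 macrophage markers 2 were higher and 2 lower in aged ovaries (-0.409 to -0.185 in young, -1.32 to 1.13 in aged). In adult against young ovaries, where 1 member passed, all 7 luteal markers were higher (0.309 to 1.17 in adult libraries), and all 6 fat cell (-0.842 to -0.267) and 3 of 4 oviduct markers (-0.619 to -0.503) were lower. With HEP14 in aged ovaries no fat cell, oviduct or macrophage marker passed by limma, nor at an unadjusted p of 0.05. By limma 4 of 7 B and plasma cell markers were lower there, and 4 of 7 granulosa and 3 of 7 luteal markers were higher. Only 2 of 6 fat cell, 2 of 4 oviduct and 7 of 10 oocyte markers had no lowest value shared between libraries. Scores do not show how abundant any marker was, so the tissue label could not be checked by level, and the part of cell makeup in the mitoribosomal differences was not tested.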

How the data were processed

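Ovarian RNA libraries, 20 in all with 4 in each of 5 groups taken from the labels, were read from the authors' deposited table of 17651 genes. Its values are scores, and the deposited scores have a mean of 0 and an SD of 1 per gene (largest deviations 3.6e-15 and 2.4e-15), so levels and depth cannot be had from them and no count model, pseudocount or low-value filter applies. Which genes the authors kept is not stated. The submitters' processing notes name DESeq2 1.20.0, featureCounts 1.5.0-p3 and HISAT2 2.0.5. For what each served, and for genome build, annotation and strand setting, nothing was given in the sources used here. Gene IDs were matched to GENCODE M21 on GRCm38 (17643 matched, 8 did not), and 3 pseudogenes with matching symbols were left out.

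The scores of the 20 libraries went into a single limma fit (limma 3.58.1, R 4.3.3) with a mean for each group, eBayes with no trend, and p-values adjusted by Benjamini-Hochberg over the whole table within a comparison (threshold 0.05). The fit was tested on simulated data. Members and gene lists were chosen with earlier results of these data known. Members with values in the text were a panel of 15 genes with known roles (14 in the table), the 4 with the largest passing and non-overlapping difference per direction in 4 comparisons, and up to 8 called against the majority direction, 26 in all. Mrps21, Mrpl46, Mrps11 and Mrpl57 were named for their promoter, overlap or neighbour, after their values were seen. Of genes that are no members, all 5 mitoribosomal proteins with other symbols, both ribosomal RNAs and, of each further list, the 2 genes with the smallest p in either comparison were named. Gabpa, Gabpb1 and Yy1 were named for the searched motifs, after their values were seen. The alternatives tried were equal library medians, 1 variance per group, a fit of the compared groups alone, a replicate block, ranks, robust moderation, genes without a shared lowest value, an adjusted p of 0.01, leaving out each library, and leaving out aged libraries 1 and 2 together, which was added after seeing the data. Promoter windows came from RefSeq (GRCm38.p6), and motifs were matched by letters on both strands. Spliced lengths, exons and overlaps came from GENCODE M21.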

Additional observations from a re-analysis of the deposited data

Results flagged for a closer look

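Of 130 group values of the 26 named genes, 10 had 1 library far from the other 3 of its group; chance gives about 1 in 20. These were Mrps5 in adult + HEP14 library 2 (-0.748), Mrps35 in adult + HEP14 library 4 (-0.946), Mrps7 and Mrpl34 in aged + HEP14 library 3 (-0.807 and -0.608), Mrps12 and Mrps30 in young library 2 (1.03 and -0.639), Mrpl3 in young library 3 (0.307), Mrps12 in aged library 1 (0.441), and Mrpl4 and Mrpl19 in aged library 2 (2.97 and 3.08).

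For 16 of the 26 named members the HEP14 effect differed between aged and adult ovaries by limma's test of that difference at an adjusted p of 0.05. The same test passed for 49.2% of the mitoribosomal genes and 47.3% of all genes. Many of the named members were chosen for large differences that involve the aged libraries, so this count is not separate evidence. The effect in aged minus that in adult ovaries was negative for Mrpl19 (-3.05), Mrps5 (-2.18), Mrpl24 (-2.14), Mrps35 (-2.12) and Mrpl58 (-1.94). It was positive for Mrps34 (2.23), Mrps30 (2.19), Mrpl34 (1.97), Mrpl35 (1.95), Mrpl50 (1.94), Mrpl44 (1.91), Mrps18b (1.90), Mrps18a (1.86), Mrpl12 (1.69), Mrpl3 (1.66) and Mrps31 (1.64).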

How the results depend on the processing

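The counts of members higher or lower in aged against young ovaries stayed within 1.5 times of 22 and 21 under every alternative tried. The other comparisons moved more. With 1 variance per group, adult against young gave 2 higher and 6 lower, aged against adult 16 higher, aged + HEP14 against aged 10 lower, aged + HEP14 against young 8 higher and 2 lower, and the difference between the HEP14 effects 10 lower. With only the compared groups in the fit, adult against young gave 3 higher and 8 lower, aged + HEP14 against aged 13 lower, and aged + HEP14 against young 6 higher and 3 lower. With ranks, adult against young gave 0 higher, aged + HEP14 against young 4 higher, and the difference between the HEP14 effects 1 higher and 7 lower. At an adjusted p of 0.01, adult against young gave 0 higher, aged + HEP14 against aged 13 lower, aged + HEP14 against young 1 higher, and the difference between the HEP14 effects 4 higher and 9 lower. With library medians set equal, the latter had 7 higher. With aged libraries 1 and 2 left out together, chosen after seeing the data, aged + HEP14 against aged gave 13 lower. The replicate block gave 1 higher in aged + HEP14 against young, where the call of Mrpl33 was lost (adjusted p = 0.0556), and changed no other count by over 1.5 times and no other named call. Same-numbered libraries deviated together with correlations of only -0.188 to 0.155, so the numbers were not taken to pair libraries. Adult + HEP14 against adult gave 0 in each fit. Leaving out 1 library at a time, adult against young gave 0 to 1 higher and 0 to 1 lower, aged + HEP14 against aged 16 to 22 higher and 12 to 23 lower, aged + HEP14 against young 1 to 5 higher and 0 lower, aged against young 20 to 23 and 19 to 21, aged against adult 22 to 26 and 16 to 19, and the difference between the HEP14 effects 10 to 15 and 13 to 20. The signs of 3 genes that did not pass in the full fit turned in some of these. Mrpl11 ranged from -1.34 to 0.146 in aged against young and from -0.874 to 0.613 with HEP14 in aged ovaries, Mrps18c from -0.084 to 1.31 and from -0.231 to 1.16, and Mrps36 from -0.074 to 0.95 and from -0.72 to 0.304. Mrpl11 with HEP14 was 0.764 without aged libraries 1 and 2. Of named calls, those of Mrpl45 were lost without aged libraries 1 and 2 (0.664, adjusted p = 0.293, and -0.656, adjusted p = 0.329), with that of Mrpl58 with HEP14 (-1.15, adjusted p = 0.0589). Apart from the fits with fewer libraries or a stricter threshold, the cause was not tested. The main fit used 1 spread per gene for all 5 groups. The median SD of the members within a group was 0.233 in young, 0.508 in adult and 0.699 in adult + HEP14 libraries. It was 1.042 in aged and 0.695 in aged + HEP14 libraries. The part of this unequal spread in the changed counts was not tested. Because scores carry no depth, counting error is unknown, and 4 libraries per group limit the precision.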
